A study of Mus musculus with 6 samples.

Results

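Lipolysis and lipid droplet coat genes were examined in inguinal fat (iWAT), a subcutaneous white depot, taken from old mice that had spent 7 days in the cold. The set holds 10 genes, taken by symbol and function, with earlier results of these data known: the lipases Pnpla2, Lipe and Mgll, the Pnpla2 cofactor Abhd5 and its inhibitor G0s2, the perilipins Plin1, Plin2, Plin4 and Plin5, and the droplet fusion protein Cidec. All 10 were found among the 54532 genes of the count table, each in 1 row. Bulk RNA sequencing gave 3 libraries from estrogen-treated and 3 from vehicle-treated mice. Cold was applied in both groups, so the comparison is of estrogen with vehicle in cold-exposed old animals, and no library from warm or young mice was analysed here. Strain, sex, age in numbers, and hormone dose and route are not stated in the labels. The series asks how estrogen acts on beige adipocytes, the heat-producing fat cells that cold induces within white fat.

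Adipocytes store triglyceride in a lipid droplet covered by coat proteins. Lipolysis takes the triglyceride apart in steps: Pnpla2 (adipose triglyceride lipase) removes a fatty acid to leave diacylglycerol, Lipe (hormone-sensitive lipase) cleaves diacylglycerol, and Mgll (monoglyceride lipase) releases the last fatty acid and glycerol. In unstimulated adipocytes Plin1 binds Abhd5 and keeps it from Pnpla2, and cold, through noradrenaline and cAMP-dependent protein kinase, phosphorylates Plin1 and Lipe and frees Abhd5. The released fatty acids are fuel for heat production and activate uncoupling protein 1 (Ucp1).

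With estrogen, the transcripts of the triglyceride lipase Pnpla2, the monoglyceride lipase Mgll and the cofactor Abhd5 were higher in each estrogen library than in any vehicle library, by 1.81-fold, 1.35-fold and 1.33-fold. The coat genes did not separate the groups, and the inhibitor G0s2 differed most between the estrogen libraries themselves. None of the 10 passed the test across all genes (edgeR quasi-likelihood F test, smallest adjusted p = 0.207). That count has to be read against a background in which edgeR called 0 of 15591 tested genes (0%) in either direction. At an unadjusted p under 0.05, 3 of the 10 were higher and 0 lower, where 9.49% of all tested genes were higher and 10.9% lower. DESeq2 on the same counts called 2 of the 10 higher, Pnpla2 and Mgll (background 2.48% of tested genes), and 0 lower (background 3%). With limma-voom 0 of the 10 were called, beside 0 of all 15591 tested genes (0%) in either direction. Groups that did not overlap were found for 3 of the 10, all higher with estrogen, against 12.8% of all tested genes higher and 14.7% lower. Leaving out vehicle replicate 3 gave 6 such genes, where 18.7% of all tested genes were higher without overlap, and leaving out estrogen replicate 1 gave 5, where 19.3% were. The number stayed at 3 when estrogen replicate 2, estrogen replicate 3, vehicle replicate 1 or vehicle replicate 2 was left out, with backgrounds of 20.2%, 15.6%, 19.2% and 15.2%. With fewer libraries groups separate more easily, so these counts are no sign of stability. The median log2 fold change over the 10 was 0.34, with 8 positive, beside 0.0025 over all tested genes, of which 50.3% were positive.

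Total counts ran from 16046601 to 20736771 per library, and the 10 genes together took 0.984 to 1.68% of them. Adipocyte markers summed to 29719 to 52022 CPM (read counts after trimmed-mean, TMM, scaling to equal library size) in estrogen libraries and 20788 to 30665 CPM in vehicle libraries, with 6 of 8 markers higher on average with estrogen. Fibroblast and progenitor markers summed to 1174 to 8198 CPM with estrogen and 11662 to 32895 CPM with vehicle (7 of 7 lower), and macrophage markers to 410 to 1430 CPM with estrogen and 1842 to 2679 CPM with vehicle (7 of 7 lower). Estrogen replicate 3 stood apart, with the highest adipocyte sum and the lowest fibroblast and macrophage sums of the 6 libraries. Skeletal muscle markers summed to 5935 CPM in estrogen replicate 1 and to at most 48.3 CPM elsewhere, with Ckm and Myh4 at 0 in at least 1 library, and B cell markers to 102 and 67.0 CPM in estrogen replicates 1 and 3 and to at most 3.77 CPM elsewhere. Mammary and skin epithelial markers were at or near 0 in all libraries, at most 0.467 CPM in sum. In bulk tissue fewer cells of a type and less RNA per cell cannot be told apart, and the part of these marker shifts in the results on the 10 genes was not tested.

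**Figure D1:**
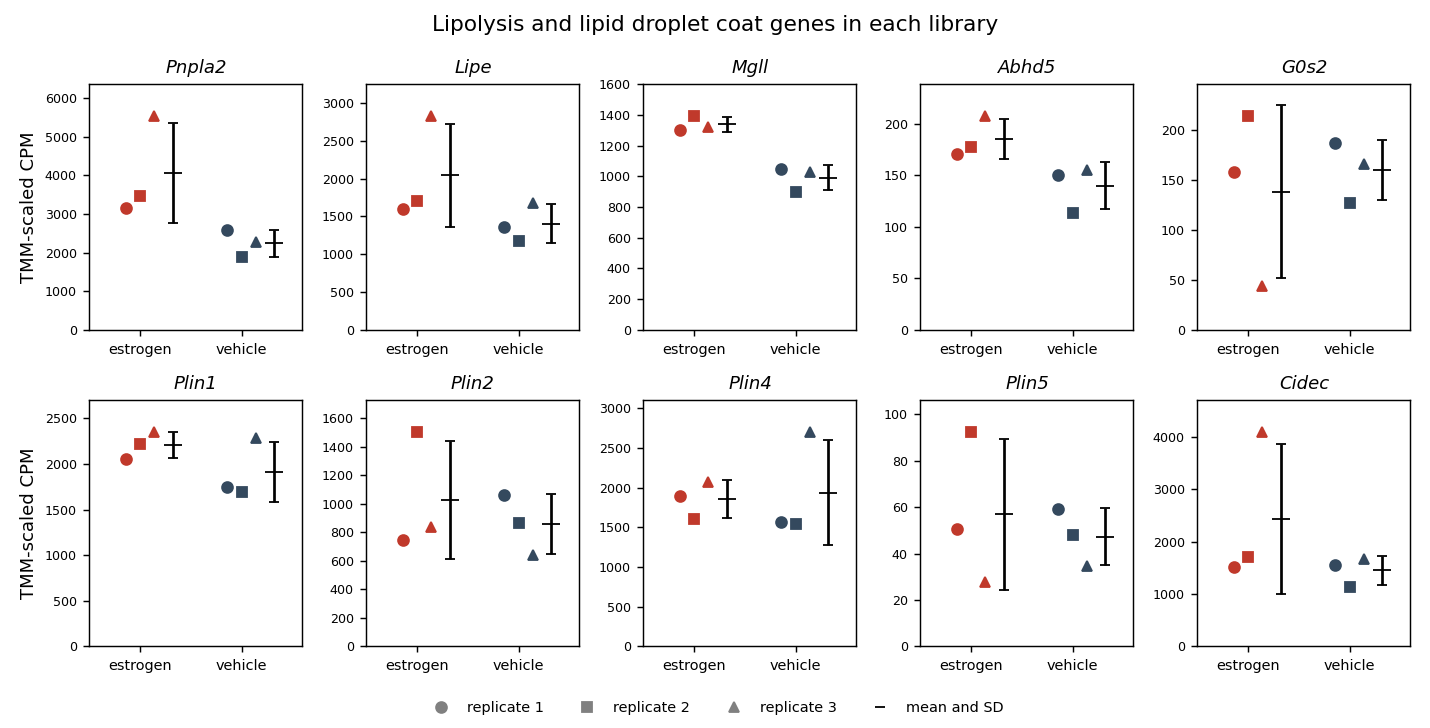
TMM-scaled CPM of each of the 10 genes (vertical axes, each from 0) in the 3 estrogen and 3 vehicle libraries, with replicates 1 to 3 as circle, square and triangle and the group mean and SD as black bars. The estrogen points of Pnpla2, Mgll and Abhd5 lie above all vehicle points, and the estrogen replicate 3 triangle is the highest point for Pnpla2, Lipe and Cidec and the lowest for G0s2 and Plin5.

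Promoter sequence is shown for Pnpla2, Mgll and Abhd5, the genes whose groups did not overlap, and for G0s2, whose product inhibits Pnpla2 but whose transcript did not follow it. RefSeq held promoters for all 10 genes (build GRCm38.p6, the assembly of mm10). The bases upstream of the start site are given 5′ to 3′ on the gene's strand, and capitals mark the motifs described next.
Pnpla2, chr7:141454938-141455187, + strand: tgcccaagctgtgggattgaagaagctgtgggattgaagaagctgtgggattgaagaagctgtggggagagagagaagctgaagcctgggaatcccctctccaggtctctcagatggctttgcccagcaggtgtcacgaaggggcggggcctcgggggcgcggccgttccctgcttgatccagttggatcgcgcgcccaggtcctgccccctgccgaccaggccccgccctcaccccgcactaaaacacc
Mgll, chr6:88724162-88724411, + strand: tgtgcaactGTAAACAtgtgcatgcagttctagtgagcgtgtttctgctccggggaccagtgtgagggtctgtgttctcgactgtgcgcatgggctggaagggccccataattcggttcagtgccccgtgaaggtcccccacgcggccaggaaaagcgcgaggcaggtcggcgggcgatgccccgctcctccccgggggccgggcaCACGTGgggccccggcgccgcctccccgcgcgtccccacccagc
Abhd5, chr9:122351366-122351607, + strand: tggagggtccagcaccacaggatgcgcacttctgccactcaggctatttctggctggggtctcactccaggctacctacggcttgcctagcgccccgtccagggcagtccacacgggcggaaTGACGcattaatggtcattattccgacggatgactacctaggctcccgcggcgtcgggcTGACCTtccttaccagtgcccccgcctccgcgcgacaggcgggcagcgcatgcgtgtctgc
G0s2, chr1:193273218-193273438, - strand: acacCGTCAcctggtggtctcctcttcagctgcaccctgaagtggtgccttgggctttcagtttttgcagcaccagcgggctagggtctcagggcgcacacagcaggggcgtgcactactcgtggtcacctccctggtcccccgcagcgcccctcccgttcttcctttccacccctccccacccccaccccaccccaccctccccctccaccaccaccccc

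In the 250 bases before the RefSeq start, on both strands, 7 motifs were searched in the 10 genes and in all 32851 RefSeq promoter windows of that length. The Mgll window holds a forkhead box O motif (GTAAACA, in 3.17% of all windows) and an E-box (CACGTG, in 6.02%), and the Lipe window also holds an E-box. That Lipe window lies inside the gene interval of the count table, 2723 bases from its start, while the RefSeq starts of the other 9 genes lie within 127 bases of the table's. The nuclear receptor core AGGTCA lies in the windows of Abhd5, Plin2 and Plin5, 3 of the 10, beside 14.0% of all windows. The core of the cAMP response element, TGACG, lies in those of Abhd5 and G0s2 (17.8% of all windows). The Pnpla2 window holds none of the 7 motifs. The exact direct repeat of AGGTCA with 1 base N between the copies, to which peroxisome proliferator-activated receptors bind, was in 0 of the 10 and in 0.0335% of all windows, the exact estrogen response element (GGTCA, then NNN, then TGACC) in 0 of the 10 and in 0.0639%, and the TATA box TATAAA in 0 of the 10 and in 12.4%. The direct repeat and the estrogen response element each contain letters of AGGTCA. A match describes letters only, and no binding was measured.

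Pnpla2, which starts lipolysis (ENSMUSG00000025509, chromosome 7, 141455198 to 141460743, plus strand, mm10), was at 3153, 3466 and 5541 CPM in estrogen replicates 1 to 3, against 2581, 1881 and 2267 CPM in vehicle replicates 1 to 3. The estrogen libraries were all above the vehicle libraries, and estrogen replicate 3 was far above the other two. Mean levels were 4053 ± 1298 CPM in estrogen and 2243 ± 351 CPM in vehicle libraries (SD, n = 3 each). The log2 fold change was 0.85 ± 0.27 (SE; 95% interval 0.23 to 1.48; edgeR unadjusted p = 0.0145, adjusted p = 0.207). DESeq2 gave 0.86 with an adjusted p of 0.0274. Without estrogen replicate 3 the estimate was 0.56, and leaving out any other library gave 0.74 to 0.99.

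Lipe, the diacylglycerol lipase (ENSMUSG00000003123, chromosome 7, 25379527 to 25398710), was at 1596, 1702 and 2832 CPM in the estrogen libraries, against 1364, 1172 and 1679 CPM in the vehicle libraries. The groups overlapped, as estrogen replicate 1 lay under vehicle replicate 3. Its log2 fold change was 0.54 ± 0.27 (95% interval -0.10 to 1.18; edgeR adjusted p = 0.29), and 0.23 without estrogen replicate 3.

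Mgll, the monoglyceride lipase (ENSMUSG00000033174, chromosome 6, 88724412 to 88828360), was at 1300, 1395 and 1324 CPM with estrogen, against 1047, 896 and 1030 CPM with vehicle. Of the 10 genes it had the smallest standard error, and estrogen replicate 3 did not stand apart. The log2 fold change of Mgll was 0.44 ± 0.15 (95% interval 0.09 to 0.78; edgeR unadjusted p = 0.0199, adjusted p = 0.207; DESeq2 adjusted p = 0.0224), and it stayed within 0.37 to 0.48 when each library was left out in turn. Mgll overlaps short transcript models on both strands, but these held at most 430 reads each over the 6 libraries, against 127445 for Mgll.

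Abhd5, which activates Pnpla2 at the droplet (ENSMUSG00000032540, chromosome 9, 122351608 to 122381524), was at 171, 178 and 208 CPM in estrogen libraries, against 151, 114 and 156 CPM in vehicle libraries. Again no estrogen library fell among the vehicle libraries. A log2 fold change of 0.41 ± 0.16 was estimated (95% interval 0.02 to 0.79; edgeR unadjusted p = 0.041, adjusted p = 0.229), and DESeq2 did not call it (adjusted p = 0.142). Leaving out vehicle replicate 2 gave 0.28, and leaving out estrogen replicate 3 gave 0.32.

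G0s2, a small protein that binds Pnpla2 and blocks its activity (ENSMUSG00000009633, chromosome 1, 193272161 to 193273217, minus strand), was at 158, 215 and 43.5 CPM in estrogen replicates 1 to 3, against 187, 127 and 166 CPM in vehicle replicates 1 to 3. Estrogen replicate 2 was the highest and estrogen replicate 3 the lowest of all 6, at 625 reads, so the groups overlapped. The fitted log2 fold change was -0.21 ± 0.50 (95% interval -1.40 to 0.98; edgeR adjusted p = 0.833). Without estrogen replicate 3 its sign turned, to 0.22, and without estrogen replicate 2 it was -0.67. G0s2 overlaps Lamb3 on the other strand, which held 563 reads in all against 16987 for G0s2. Whether the counting used strand is not stated.

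**Figure D2:**
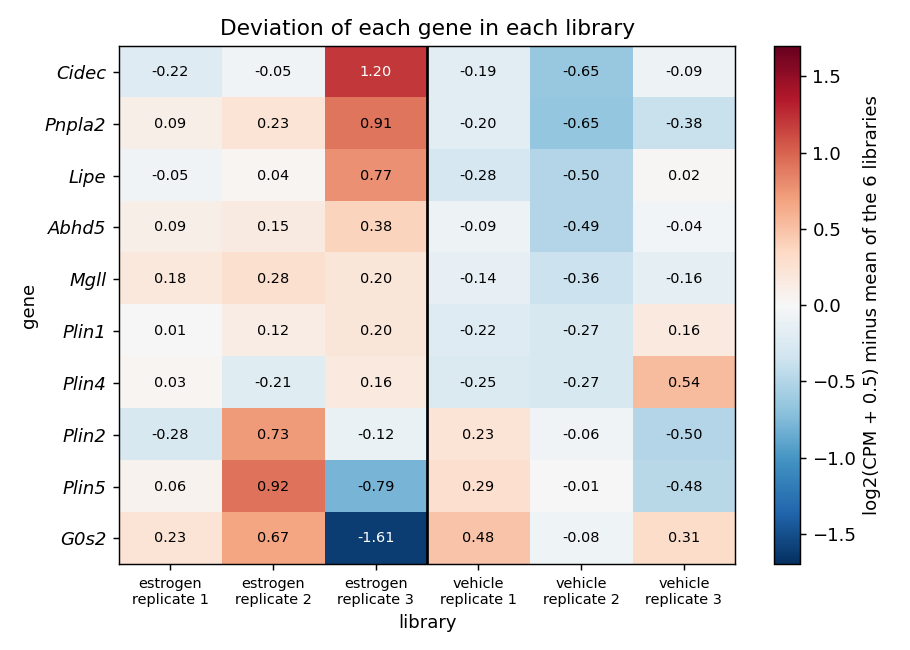
Deviation of each gene (rows) from its mean over the 6 libraries on the log2(CPM + 0.5) scale, for the estrogen and vehicle libraries (columns), with the value printed in each cell and red above, blue below the mean. Estrogen replicate 3 is at 1.20 for Cidec, 0.91 for Pnpla2 and 0.77 for Lipe, and at -1.61 for G0s2 and -0.79 for Plin5.

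Plin1 coats the large droplet of white adipocytes and gates lipolysis (ENSMUSG00000030546, chromosome 7, 79720218 to 79732903). It was at 2053, 2222 and 2347 CPM with estrogen, against 1750, 1687 and 2285 CPM with vehicle. Vehicle replicate 3 lay among the estrogen libraries, and the other vehicle libraries lay below them. Its log2 fold change of 0.21 ± 0.18 had a 95% interval of -0.22 to 0.64 (edgeR adjusted p = 0.528), and the estimate was 0.13 without vehicle replicate 2 and 0.36 without vehicle replicate 3.

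Plin4, a perilipin of adipocytes that coats nascent droplets (ENSMUSG00000002831, chromosome 17, 56100591 to 56109803), was at 1900, 1605 and 2076 CPM with estrogen, against 1566, 1543 and 2696 CPM with vehicle. The highest value belonged to vehicle replicate 3. Estimated at -0.06 ± 0.26 on the log2 scale (95% interval -0.67 to 0.56; edgeR adjusted p = 0.916), the difference turned positive without vehicle replicate 3, at 0.26, and without estrogen replicate 2, at 0.04. Plin4 overlaps Hdgfl2 on the other strand, which held 6093 reads against 214437 for Plin4.

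Plin2, the coat protein found on droplets of most cell types (ENSMUSG00000028494, chromosome 4, 86648386 to 86670060), was at 747, 1500 and 833 CPM with estrogen, against 1059, 867 and 640 CPM with vehicle. Only estrogen replicate 2 exceeded the vehicle range. The log2 fold change of 0.26 ± 0.31 (95% interval -0.47 to 1.003; edgeR adjusted p = 0.646) was -0.11 without that library.

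Plin5, which ties droplets to mitochondria in oxidative tissues (ENSMUSG00000011305, chromosome 17, 56111601 to 56117596), was at 50.6, 92.2 and 27.7 CPM in estrogen replicates 1 to 3, against 59.3, 48.0 and 34.7 CPM in vehicle replicates 1 to 3. Estrogen libraries held both the highest and the lowest value. A log2 fold change of 0.26 ± 0.41 (95% interval -0.71 to 1.24; edgeR adjusted p = 0.731) became -0.27 without estrogen replicate 2 and 0.60 without estrogen replicate 3. Ucp1, the uncoupling protein of thermogenic adipocytes, was at 696, 1754 and 10.2 CPM in the same estrogen libraries, against 907, 589 and 333 CPM in the vehicle libraries.

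Cidec, which sits at droplet contact sites and lets small droplets pass their lipid into larger ones (ENSMUSG00000030278, chromosome 6, 113424634 to 113435760), was at 1524, 1711 and 4093 CPM with estrogen, against 1563, 1133 and 1666 CPM with vehicle. Estrogen replicate 3 was far above the other 5 libraries, among which the groups overlapped. The log2 fold change was 0.75 ± 0.40 (95% interval -0.19 to 1.69; edgeR adjusted p = 0.315) and was 0.15 without estrogen replicate 3.

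**Figure D3:**
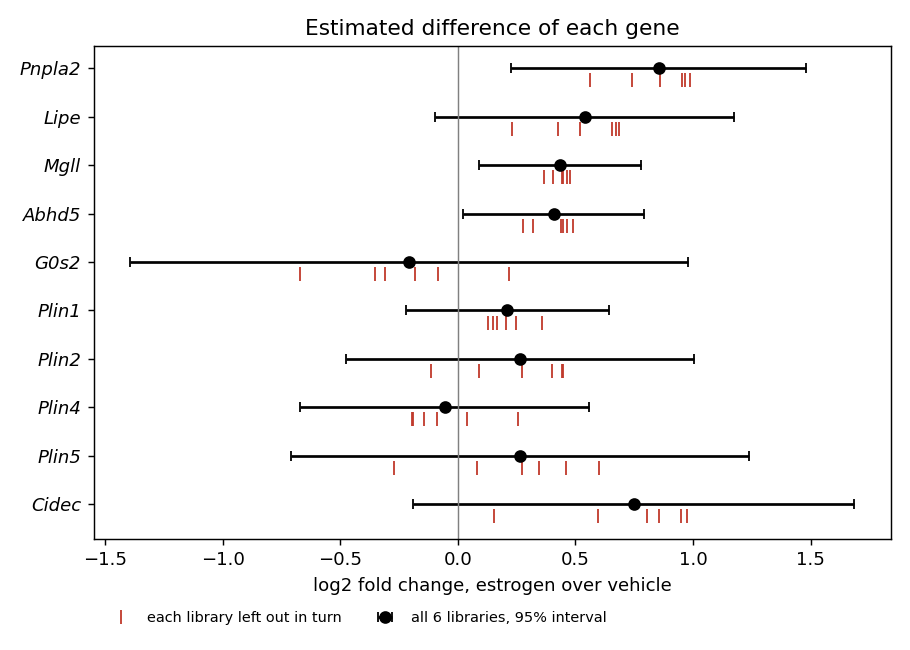
Log2 fold change, estrogen over vehicle, of each gene (horizontal axis) from the edgeR fit on all 6 libraries, with its 95% interval (black), and with each library left out in turn (red marks). The intervals of Pnpla2, Mgll and Abhd5 lie above 0 before adjustment for the number of genes tested, and the red marks of G0s2, Plin2, Plin4 and Plin5 fall on both sides of 0.

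Levels of different genes were compared as CPM per kilobase of gene length. Cidec and Pnpla2 were the most abundant, at 1316 ± 772 and 1342 ± 430 CPM per kilobase in estrogen libraries and 783 ± 152 and 743 ± 116 in vehicle libraries (SD, n = 3 each). These 2 could not be ordered, since Cidec was above Pnpla2 in 2 of 6 libraries. Plin1 came next, at 475 ± 31.7 with estrogen and 410 ± 70.6 with vehicle, under Pnpla2 and above Plin4 in 6 of 6 libraries. Plin4, Lipe and Plin2 then lay close together, with means of 322, 347 and 292 CPM per kilobase in estrogen and 335, 239 and 243 in vehicle libraries, and Plin4 exceeded Lipe in 4 and Lipe exceeded Plin2 in 3 of 6 libraries. Mgll followed at 264 with estrogen and 195 with vehicle, under Plin2 in 3 of 6 libraries, and then G0s2 at 159 and 184, under Mgll in 5 of 6. The rarest were Abhd5, at 31.2 ± 3.29 with estrogen and 23.5 ± 3.84 with vehicle, and Plin5, at 27.2 ± 15.7 and 22.7 ± 5.91, which were above each other in 3 libraries each.

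Ratios between genes within a library do not depend on the scaling, and 10 were computed. The difference of group means of each log2 ratio was tested by an exact two-sided permutation test, which cannot go below p = 0.1 with 3 against 3 libraries. The count of Abhd5 relative to Pnpla2 had log2 ratios of -4.20, -4.28 and -4.74 in estrogen libraries, against -4.10, -4.05 and -3.86 in vehicle libraries. Cofactor transcripts were thus lower relative to lipase transcripts in each estrogen library, by 0.40 on average and by 0.24 without estrogen replicate 3. G0s2 relative to Pnpla2 was at -4.32, -4.01 and -6.99 with estrogen, against -3.78, -3.89 and -3.77 with vehicle. That inhibitor-to-lipase ratio hardly varied among vehicle libraries (SD 0.0635) and was lower in each estrogen library, with a mean difference of -1.30 that was -0.35 without estrogen replicate 3.

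Lipe relative to Pnpla2 was at -0.98, -1.03 and -0.97 in estrogen libraries, against -0.92, -0.68 and -0.43 in vehicle libraries. The estrogen libraries lay within a narrow band (SD 0.0300), below all vehicle libraries, and the mean difference was -0.31, or -0.19 without vehicle replicate 3. Plin1 relative to Pnpla2 was at -0.62, -0.64 and -1.24 with estrogen, against -0.56, -0.16 and 0.01 with vehicle, a mean difference of -0.60, or -0.39 without estrogen replicate 3. Pnpla2 was therefore higher relative to Abhd5, G0s2, Lipe and Plin1 in each of the 3 estrogen libraries than in any vehicle library. These 4 ratios all contain Pnpla2, whose own groups did not overlap, so they are not separate observations. The share of all tested genes that would separate relative to Pnpla2 is not given here. Relative to the summed counts of 8 adipocyte markers, Pnpla2 was at -3.27, -3.10 and -3.23 with estrogen, against -3.33, -3.47 and -3.76 with vehicle, a mean difference of 0.32, or 0.20 without vehicle replicate 3. Most of that sum came from Cfd, Lpl and Fabp4, with log2 fold changes of 0.60, 0.51 and 0.46. Slc2a4 and Retn were at 0.87 and 0.82, near the 0.85 of Pnpla2, Adipoq at 0.63, and Pparg and Lep at -0.08 and -0.73. Pnpla2 relative to each marker alone was not tested. Each of these 5 ratios reached the smallest p the exact permutation test allows (p = 0.1, adjusted p = 0.2 over the 10 ratios), which does not pass the threshold. Within the lipases, Mgll relative to Lipe differed by -0.07 on average (exact permutation p = 1). Among droplet proteins, the mean differences relative to Plin1 were 0.0009 for Plin2, -0.24 for Plin4, -0.09 for Plin5 and 0.40 for Cidec, with group ranges that overlapped (exact permutation p from 0.4 to 1).

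**Figure D4:**
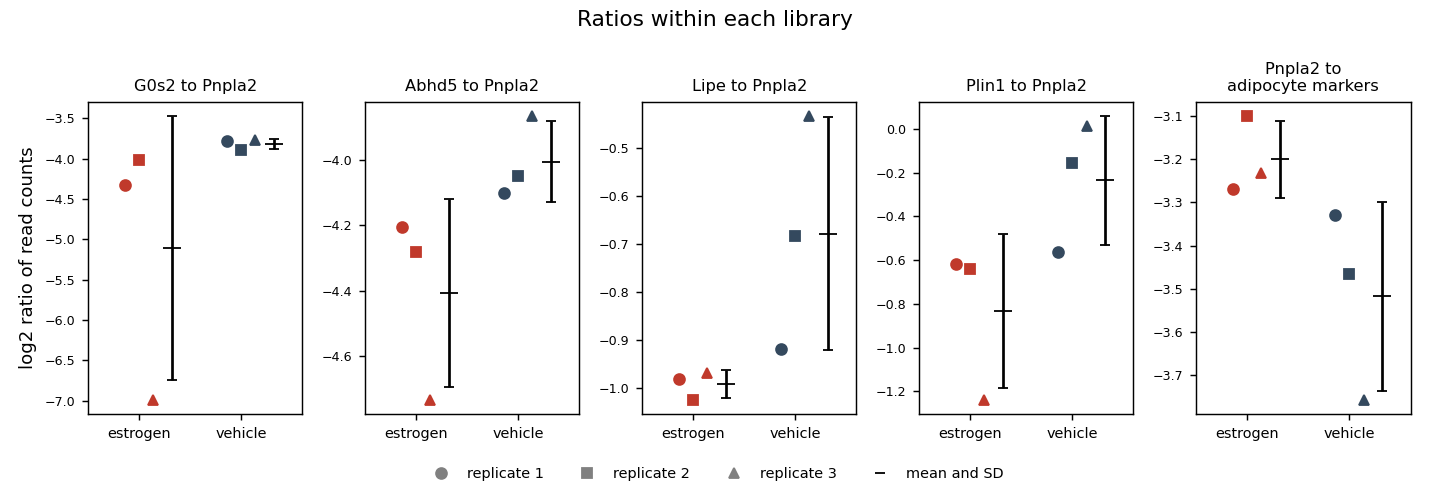
Log2 ratio of read counts within each library (vertical axes, each with its own range, not from 0) for G0s2, Abhd5, Lipe and Plin1 relative to Pnpla2 and for Pnpla2 relative to the summed adipocyte markers, in estrogen and vehicle libraries, with group mean and SD. In the 4 ratios to Pnpla2 the estrogen points lie below all vehicle points, and in the ratio to adipocyte markers above them.

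Of the summed CPM per kilobase of Plin1, Plin2, Plin3, Plin4 and Plin5, Plin1 made up 43.2, 38.3 and 44.8% in estrogen libraries, against 37.8, 39.5 and 41.9% in vehicle libraries. Plin1 was the largest share in all 6 libraries, and the groups overlapped. Plin2 and Plin4 varied more, Plin2 at 20.8, 34.2 and 21.05% with estrogen against 30.3, 26.8 and 15.5% with vehicle, and Plin4 at 32.2, 22.3 and 31.9% with estrogen against 27.2, 29.1 and 39.8% with vehicle. In estrogen replicate 2 and vehicle replicate 1 Plin2 exceeded Plin4, and in the other libraries Plin4 exceeded Plin2. Plin5 held 1.18 to 3.54% with estrogen and 1.42 to 2.85% with vehicle, and Plin3, a perilipin found in most cell types, 1.11 to 1.67% with estrogen and 1.27 to 2.13% with vehicle. With all 6 libraries the difference of group means was, for each of the 5 shares, smaller than the larger of the SDs of both groups.

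**Figure D5:**
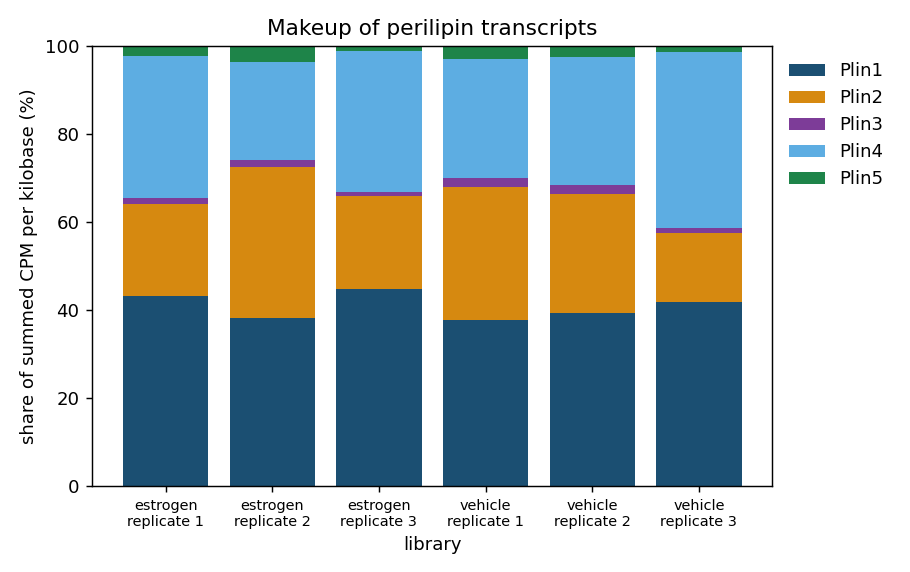
Share of each perilipin in the summed CPM per kilobase of the 5 perilipins (vertical axis, percent) in each estrogen and vehicle library. Plin1 holds 37.8 to 44.8% in every library, and the Plin2 share ranges from 15.5% in vehicle replicate 3 to 34.2% in estrogen replicate 2.

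Other genes of the pathway were read from 4 lists, of which 0 genes passed the edgeR test in either direction. Their counts are to be read beside all tested genes, of which 50.3% were positive. At an edgeR unadjusted p under 0.05, 9.49% of all tested genes were higher and 10.9% lower, and DESeq2 called 2.48% higher and 3% lower. Among other hydrolases and product handling, 10 of 10 were tested and 9 were positive. The median log2 fold change was 0.54, 4 were at an unadjusted p under 0.05, all higher, and DESeq2 called 4 higher. Abhd6, a monoglyceride hydrolase, was at 30.3, 35.9 and 40.5 CPM with estrogen, against 22.6, 21.6 and 20.9 CPM with vehicle, without overlap (log2 fold change 0.71 ± 0.13; edgeR adjusted p = 0.207). Ddhd2, a lipase known for triglyceride in brain, and Fabp5, a fatty acid binding protein, had log2 fold changes of 0.62 and 0.93, with DESeq2 adjusted p of 0.02 and 0.0198. Among receptors and cAMP signalling 15 of 15 were tested, with 9 positive, a median of 0.23 and 2 at an unadjusted p under 0.05, both higher. Prkaca, a catalytic subunit of the kinase that phosphorylates Plin1 and Lipe, was at 320, 416 and 363 CPM with estrogen, against 284, 255 and 266 CPM with vehicle (log2 fold change 0.45 ± 0.15; edgeR adjusted p = 0.207), and Adora1, an inhibitory adenosine receptor, had a log2 fold change of 0.52.

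Other droplet proteins showed no common direction, with 13 of 15 tested, 7 positive, a median of 0.11 and 1 at an unadjusted p under 0.05, higher (background 9.49% of all tested genes higher and 10.9% lower). That gene was Fitm2, needed for droplet budding, with a log2 fold change of 0.57 ± 0.21 (edgeR adjusted p = 0.212), or 0.36 without estrogen replicate 3. Bscl2 (seipin), which shapes nascent droplets, was at 0.42, and Hilpda, an inhibitor of Pnpla2 induced by hypoxia, at -0.90, with 8.50, 18.1 and 5.01 CPM with estrogen against 17.8, 26.8 and 14.4 CPM with vehicle. Without estrogen replicate 3 Bscl2 was at 0.22 and Hilpda at -0.57, and without estrogen replicate 2 Hilpda was at -1.54. Of the transcription factors, 8 of 8 were tested, 5 were positive, with a median of 0.12, and 0 had an unadjusted p under 0.05, with the same background. Cebpa, an adipogenic factor, had a log2 fold change of 0.57, Egr1, which represses Pnpla2 in cultured adipocytes, -1.20, and Irf4, which induces lipolysis genes in fasted adipocytes, 1.30. These values moved with single libraries, and Cebpa was at 0.29 and Irf4 at 0.16 without estrogen replicate 3, and Egr1 at -0.63 without vehicle replicate 3. Irf4 was at 129 CPM in estrogen replicate 3 and at 15.0 to 36.5 CPM elsewhere, of which 36.5 CPM was in estrogen replicate 1. It is also expressed by B cells, whose markers summed to 67.0 CPM in estrogen replicate 3 and 102 CPM in estrogen replicate 1. The part of B cells in the Irf4 values was not tested.

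Within the set, Abhd5 and Mgll were nearest to each other over the 6 libraries, with a root-mean-square distance of 0.12 between their mean-centred log2 values. Pnpla2 and Cidec each lay nearest to Lipe, at a distance of 0.21 for both, and Plin2 and Plin5 nearest to each other, at 0.32. G0s2 was the farthest gene for 8 of the other 9 and was itself nearest to Plin5, at 0.49. Among 5251 other genes that averaged at least 5 on the log2 CPM scale, those most like Pnpla2 were Orm1, Unc5a, Fmo1, Pex16 and Mdh1, at distances of 0.06 to 0.08. Orm1 was at 195, 228 and 352 CPM with estrogen, against 166, 116 and 131 CPM with vehicle. All of these values come from the same 6 libraries and the same scaling.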

How the data were processed

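The deposited table holds unnormalized read counts for each gene, with gene symbols, coordinates and lengths. Reads were aligned with HISAT2 and counted with featureCounts on mm10, per the submitters' processing notes. For versions, strand setting, multi-mapping reads and annotation release the sources used here give nothing. Groups and replicate numbers come from the sample titles. The labels do not say that libraries are from separate animals. The p-values therefore weigh the group difference against the spread between libraries, which may be in part technical. No libraries of a group agreed within sampling noise (chi-square per degree of freedom of at least 45.9).

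Counts were scaled by TMM, filtered by filterByExpr (15591 genes kept, all 10 members among them) and tested with edgeR's quasi-likelihood F test, two-sided, with p-values adjusted by Benjamini-Hochberg over the 15591 genes and called under 0.05. Standard errors and 95% intervals come from the F statistic and its degrees of freedom. Versions were edgeR 4.0.16, DESeq2 1.42.0 and limma 3.58.1 under R 4.3.3, and the fits were tested on simulated data. Members, lists and tests were chosen with earlier results of these data known. The rule for naming genes took all members, the 3 of smallest unadjusted p in each list of other pathway genes, and the 5 most like Pnpla2. Plin3 and Ucp1 were named beside these as a perilipin and a marker, and Cidea was chosen after its values were seen. Also outside this rule, Ckm, Myh4, Cox8b, Elovl3, Dio2 and the adipocyte markers are named as listed markers, and Lamb3 and Hdgfl2 as overlapping genes. A gene that this rule would name is not reported here. Alternatives covered scaling, filters, DESeq2, limma-voom, a replicate block and each library left out. Marker sums and ratios use all listed genes. Every member had at least 398 reads in each library, so counting error is small beside the spread between libraries.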

Additional observations from a re-analysis of the deposited data

How the results depend on the processing

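DESeq2 called 386 genes higher (2.48%) and 468 lower (3%) over all tested genes, where edgeR called 0, and 2 of the 10 members and 4 other pathway genes higher, where edgeR called 0. Leaving out each library in turn gave 0 to 13 calls higher and 0 lower over all genes, the 13 without estrogen replicate 2, and 0 among the members. Non-overlapping members, all higher, then numbered 3 to 6, beside 15.2 to 20.2% of all tested genes, but leaving out a library favours separation. Scaling, filters and limma-voom turned no direction among the members. They added no call, either among the members or over all tested genes. Under limma-voom, however, G0s2 was at -0.48, Plin4 at -0.0067 and Plin5 at 0.13. Leaving out a library turned the sign of the log2 fold change for Plin2 (range -0.11 to 0.45) and Plin5 (-0.27 to 0.60) without estrogen replicate 2, for G0s2 (-0.67 to 0.22) without estrogen replicate 3, and for Plin4 (-0.20 to 0.26) without estrogen replicate 2 (0.04) and without vehicle replicate 3 (0.26). The differences of mean log2 ratios (estrogen minus vehicle) ran from -0.20 to 0.20 for Mgll to Lipe, -0.33 to 0.23 for Plin2 to Plin1, -0.52 to 0.39 for Plin5 to Plin1 and -0.0060 to 0.61 for Cidec to Plin1, each with a change of sign, and the other 6 ratios kept theirs. Differences of perilipin shares, in percentage points, ran from 1.03 to 4.26 for Plin1 and -0.60 to -0.17 for Plin3, and both exceeded the larger SD of the 6 libraries when estrogen replicate 2 or vehicle replicate 3 was left out. Those of Plin2 (-3.29 to 4.17), Plin4 (-5.66 to 0.64) and Plin5 (-0.48 to 0.70) changed sign. The cause of these changes was not tested.

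Whether the replicate numbers pair the libraries is not stated and cannot be decided from 3 libraries a group. Deviations of same-numbered libraries correlated at -0.13, 0.20 and 0.31. Estrogen replicates 2 and 3 correlated best with the vehicle library of the same number, and estrogen replicate 1 with vehicle replicate 2. The submitters' own library names number the libraries otherwise than the titles do. With the replicate block, 0 members and 0 genes were called, and the median log2 fold change of the members was 0.32, with G0s2 at -0.46, Plin4 at -0.01 and Plin5 at 0.13. With 3 libraries a group the intervals are wide, widest for G0s2 among the members (-1.40 to 0.98).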

Other observations

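Plin5 and Ucp1 put the 6 libraries in the same order, a likeness chosen after their values were seen. Both were highest in estrogen replicate 2 (92.2 CPM for Plin5 and 1754 CPM for Ucp1), then in vehicle replicate 1 (59.3 and 907 CPM), estrogen replicate 1 (50.6 and 696 CPM), vehicle replicate 2 (48.0 and 589 CPM), vehicle replicate 3 (34.7 and 333 CPM) and estrogen replicate 3 (27.7 and 10.2 CPM). Cidea, a droplet protein abundant in thermogenic fat and likewise picked after its values were seen, was at 222, 493 and 138 CPM in estrogen replicates 1 to 3, against 262, 197 and 109 CPM in vehicle replicates 1 to 3, and so differed from that order only in its lowest pair of libraries. The other listed thermogenic markers were Cox8b, Elovl3 and Dio2. Cox8b kept the order of Plin5, at 240, 452 and 116 CPM with estrogen, against 285, 220 and 199 CPM with vehicle. Elovl3 (75.3, 167 and 63.6 CPM against 70.6, 46.6 and 15.1 CPM) and Dio2 (22.7, 24.6 and 19.6 CPM against 13.1, 11.3 and 22.6 CPM) did not. In estrogen replicate 3, where Plin5 and Ucp1 were lowest, Pnpla2, Lipe, Abhd5, Plin1 and Cidec were at their highest. That was not particular to these members. The summed adipocyte markers were also highest there, at 52022 CPM against 20788 to 30665 CPM in the other libraries, although Lep was at its lowest, at 28.6 CPM. The values come from the same libraries and scaling, and no test was made of the order that Plin5 and Ucp1 share. How many of all tested genes keep that order is not given here.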
